A study of Caenorhabditis elegans with 2 samples.

Results

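The hsp-16 genes of Caenorhabditis elegans encode small heat shock proteins, and 6 of them were described here by the RNA polymerase III subunit RPC-1 at their promoters. The 6 were hsp-16.2, hsp-16.41, hsp-16.1, hsp-16.48, hsp-16.49 and hsp-16.11, of 19971 annotated nuclear protein-coding genes, and they lie on chromosome V as 3 divergent pairs whose members start from a shared promoter. They were chosen by name and with the deposited peaks at these promoters already known, so the peaks below are a description and carry no test. Chromatin immunoprecipitation and sequencing (ChIP-seq) with an antibody named for RPC-1 had been done on whole young adults of strain N2, the laboratory wild type, with males and females pooled and no heat shock or other treatment named in the labels. There was 1 group of 2 biological replicates, and whole animals mix all tissues, so a signal in few cells and a weak signal in many cannot be told apart.

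Small heat shock proteins bind unfolding proteins without using ATP and hold them soluble until other chaperones refold them. In heat the worm's heat shock factor HSF-1 binds heat shock elements, which are alternating GAA and TTC units, and RNA polymerase II then transcribes the hsp-16 genes, which are nearly silent in unstressed worms; hsp-16.2 is widely used as a stress reporter for this reason. RPC-1 is the largest subunit of a different enzyme, RNA polymerase III, which makes transfer RNAs, 5S ribosomal RNA, U6 RNA and other short RNAs and has its own promoter signals, among them the B box of transfer RNA genes.

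The promoter stretches are shown because they carry both the likeness and the difference between the pairs. Each runs from the side of the first gene of the pair to the end of the heat shock element nearest the second gene, on the plus strand of ce11 (RefSeq WBcel235), at chrV:1804958-1805181 for hsp-16.2 and hsp-16.41 and at chrV:9087809-9088032 for hsp-16.1 and hsp-16.48. Capitals mark exact heat shock elements.
hsp-16.2 / hsp-16.41: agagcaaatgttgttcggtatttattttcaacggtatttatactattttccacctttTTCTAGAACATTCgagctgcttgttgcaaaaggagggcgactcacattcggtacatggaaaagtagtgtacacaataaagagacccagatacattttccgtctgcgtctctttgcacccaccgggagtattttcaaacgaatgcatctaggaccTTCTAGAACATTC
hsp-16.1 / hsp-16.48: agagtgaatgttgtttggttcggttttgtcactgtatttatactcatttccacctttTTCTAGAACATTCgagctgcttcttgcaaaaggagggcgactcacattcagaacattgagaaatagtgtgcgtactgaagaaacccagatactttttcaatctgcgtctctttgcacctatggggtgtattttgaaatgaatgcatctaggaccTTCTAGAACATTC
The remaining pair, hsp-16.49 and hsp-16.11, has the same 224 bases as hsp-16.1 and hsp-16.48, on the minus strand at chrV:9089865-9090088. Both printed stretches hold the element TTCTAGAACATTC at the same 2 places, 154 bp apart from start to start. Without gaps, 189 of their 224 bases are identical (84.4%), and an alignment of the 141 bases between the elements has 120 identical bases (85.1%).

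An RPC-1 peak lay at 1 of the 3 promoters. In the thresholded list, made by the authors from both replicates by the irreproducible discovery rate procedure, 1 of 3 pairs had a peak within 500 bp of the 5′ ends, against 6.89% of the 1726 divergent protein-coding pairs in the genome with 5′ ends at most 1000 bp apart (119 pairs, exact 95% interval 5.74 to 8.19%). By gene, 2 of 6 had one, against 2.50% of all protein-coding genes. Both were members of 1 pair, hsp-16.2 and hsp-16.41, and they shared 1 peak. The counts were the same, 1 of 3 pairs and 2 of 6 genes, among the 1320 strongest regions of replicate 1 (7.36% of all divergent pairs and 2.68% of all genes) and of replicate 2 (5.62% and 2.21%). Among the strongest 660 thresholded peaks they were 0 of 3 and 0 of 6 (1.04% of all divergent pairs and 0.816% of all genes).

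The hsp-16.2 gene (Y46H3A.3, WBGene00002016) spans chrV:1804334-1804957 on the minus strand, and hsp-16.41 (Y46H3A.2, WBGene00002018) spans chrV:1805178-1805875 on the plus strand, with 220 bp between them. Their peak, at chrV:1805044-1805226, was 183 bp wide. It covered 134 bp between the 5′ ends and 49 of the 93 bp of the 5′ untranslated region annotated for hsp-16.41, and no base of hsp-16.2. The median width in the thresholded list was 400 bp, and 6.67% of its peaks were this narrow. The peaks of the 3 divergent pairs nearest in rank (dad-1 and tre-1, mrg-1 and spcs-2, erfa-3 and math-33) were 179, 193 and 167 bp wide, so the width is not particular to this promoter.

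Its signal, the authors' enrichment value, was 124 in the thresholded list, where it ranked 705 of 1320, at 0.861 times the median of 145. In the relaxed list called on both replicates together it ranked 705 of 20662, at 10.8 times the median signal of 11.5. In replicate 1 alone the region was chrV:1804998-1805361, with a signal of 41.1 and rank 708 of 30000. In replicate 2 alone it was chrV:1805016-1805215, with a signal of 86.7 and rank 701 of 30000. Both replicates thus placed the promoter at nearly the same rank, within the strongest 2.36% and 2.34% of their lists, at 5.83 and 20.8 times the list's median. Signals of different lists are on different scales, so the signals and these multiples were not compared between replicates. The authors name the pooled relaxed list as peaks and background, and the replicate lists are relaxed as well. Percentiles and multiples in the relaxed lists are thus set against many weak regions, which can be background.

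**Figure D1:**
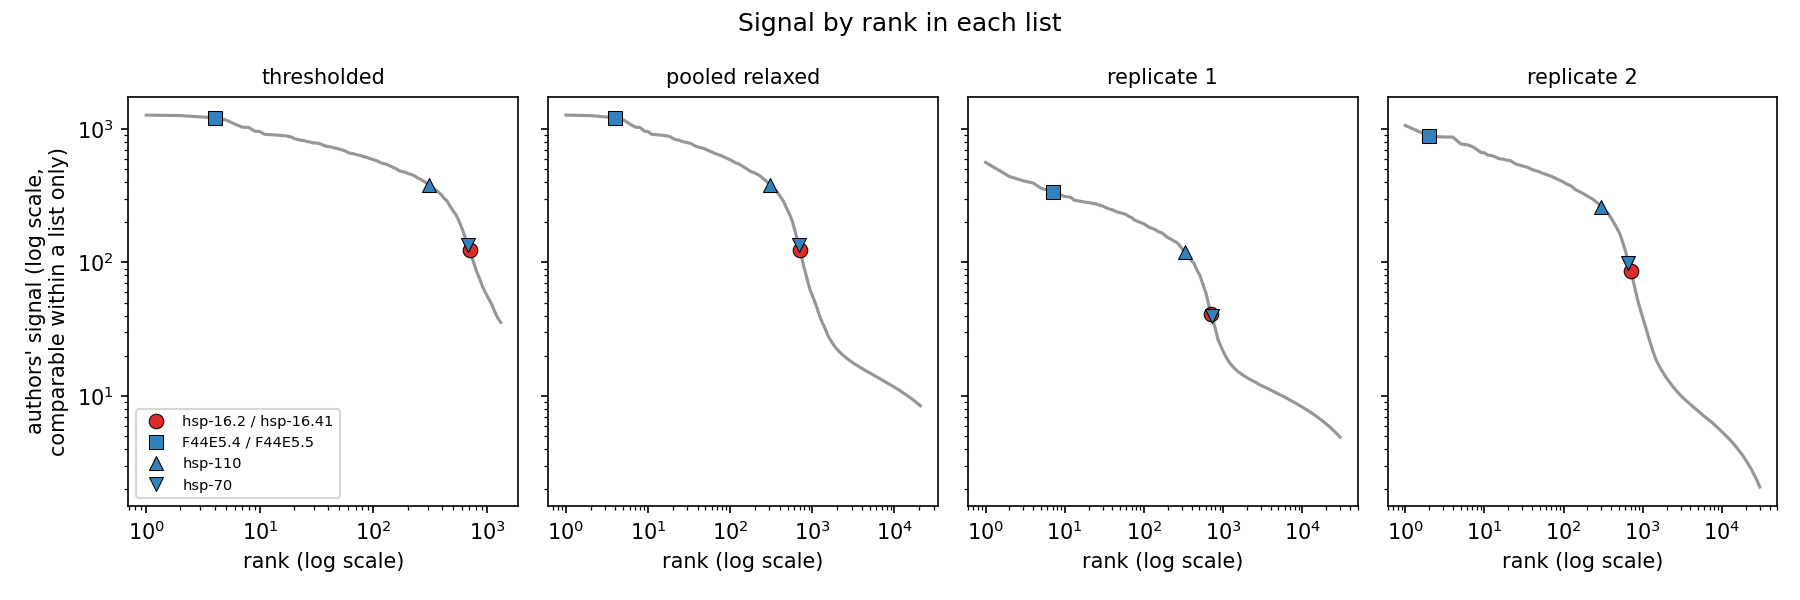
The plot of signal by rank shows the authors' signal (vertical, log scale) against rank (horizontal, log scale) in each of the 4 lists. The red circle is the hsp-16.2 and hsp-16.41 promoter, at ranks 705, 705, 708 and 701, and blue symbols are promoters of HSP70 and HSP110 chaperone genes, of which hsp-70 (rank 679 in the thresholded list) sits beside it.

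The summit of the pooled peak, chrV:1805138, lay 70.5 bp from the midpoint of the promoter on the side of hsp-16.41. It was 40 bp upstream of the 5′ end of hsp-16.41 and 181 bp upstream of that of hsp-16.2. Replicate 1 had its summit 112.5 bp from the midpoint, 2 bp inside hsp-16.41, and replicate 2 had its summit at 37.5 bp, 73 bp upstream of hsp-16.41. All 3 summits lay on the hsp-16.41 side of the midpoint, and signal for hsp-16.2 and signal for hsp-16.41 cannot be told apart over so short a promoter.

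Relative to the heat shock elements, the pooled summit lay between the 2 copies. It was 117 bp past the centre of the copy near hsp-16.2 (chrV:1805015-1805027) and 37 bp before the centre of the copy near hsp-16.41 (chrV:1805169-1805181). In replicate 1 the summit lay 5 bp past the centre of the copy near hsp-16.41, inside that element, and in replicate 2 it lay 70 bp before it. The copy near hsp-16.41 was wholly covered in all 4 lists, and the copy near hsp-16.2 in replicate 1's list alone. Replicate 2's region began at chrV:1805016, within the copy near hsp-16.2, and so covered that copy in part. The pooled peak began past it, at chrV:1805044. The copy near hsp-16.41 also spans the annotated 5′ end of that gene, so 1 element lies wholly between the 5′ ends and 2 between the start codons.

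A second, weak region lay over the 3′ end of hsp-16.2 in the pooled relaxed list (chrV:1804136-1804535). Its signal was 11.4, at rank 10494, and it covered 202 bp of the gene. Replicate 1 had a region there as well, with a signal of 8.40 at rank 9505, and replicate 2 had none. Replicate 2 had instead a region at the 3′ end of hsp-16.41, 84 bp outside the window, with a signal of 3.35 at rank 19776. None of these was in the thresholded list. The nearest other thresholded peak (chrV:1797658-1798057, signal 49.7, rank 1081) lay 6400 bp outside the window.

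The other 4 genes lie in an inverted repeat. The hsp-16.1 gene (T27E4.8, WBGene00002015) spans chrV:9087293-9087782 on the minus strand and hsp-16.48 (T27E4.3, WBGene00002019) chrV:9088131-9088617 on the plus strand. The hsp-16.49 gene (T27E4.9, WBGene00002020) spans chrV:9089280-9089766 on the minus strand and hsp-16.11 (T27E4.2, WBGene00002017) chrV:9090077-9090604 on the plus strand. The arms, chrV:9086851-9088741 and chrV:9089156-9091046, are 1891 bp each and differ at 1 base, with 1881 bp identical without a break, and a spacer of 414 bp separates them. Besides the 4 genes each arm holds an annotated small nuclear RNA gene, T27E4.11 in the left arm and T27E4.10 in the right. The coding sequences repeat accordingly. Those of hsp-16.1 and hsp-16.11 are identical over 438 bases, and those of hsp-16.48 and hsp-16.49 over 432 bases.

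The pair with the peak differs in sequence from the duplicated pairs. The hsp-16.2 coding sequence is 90.6% identical to that of hsp-16.1, and that of hsp-16.41 is 92.1% identical to that of hsp-16.48. Within a pair the coding sequences are less alike, at 57.0% for hsp-16.2 and hsp-16.41 and 60.1% for hsp-16.1 and hsp-16.48. Each pair thus joins 1 gene of each of 2 sequence groups.

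No list had a region at these 4 genes. In the pooled relaxed list 1 of 3 hsp-16 pairs had a region, against 45.0% of all divergent pairs, and the counts were again 1 of 3 in replicate 1 (54.1% of all pairs) and in replicate 2 (53.0%). By gene the count was 2 of 6 in each relaxed list, against 31.0% of protein-coding genes in the pooled list, 39.8% in replicate 1 and 38.9% in replicate 2. These shares are over all pairs or genes, whereas 4 of the 6 genes lie in repeated sequence. Few genes in repeated sequence had a region in any list, as given below, so the shares are not a like background. The nearest thresholded peak was 150863 bp from the window of hsp-16.1 and hsp-16.48. In the spacer each replicate had 1 weak region. Replicate 1's (chrV:9088895-9089258) had a signal of 6.24 at rank 19643 of 30000, 8 bp outside the window of hsp-16.49 and hsp-16.11. Replicate 2's (chrV:9088696-9089075) had a signal of 4.22 at rank 14779 of 30000, 65 bp outside the window of hsp-16.1 and hsp-16.48. Both summits lay in the spacer, at 0.885 and 1.01 times their list's median, and the pooled list had no region there.

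**Figure D2:**
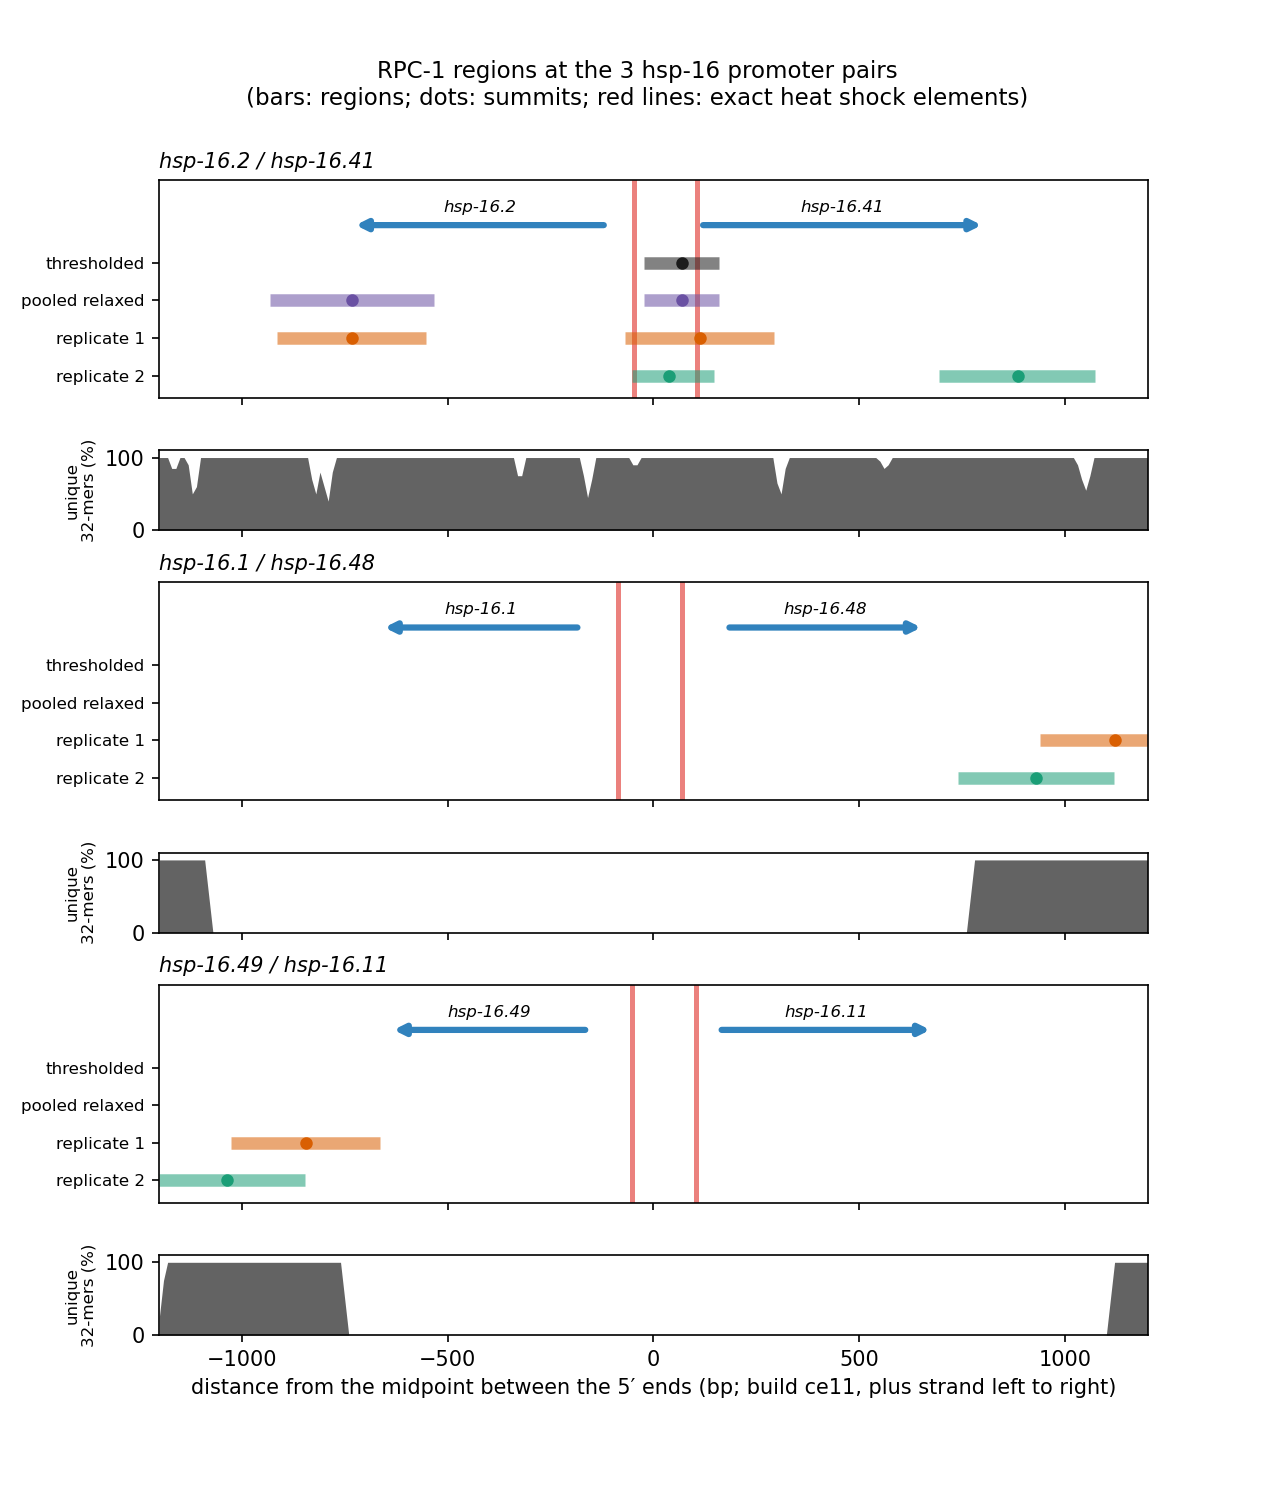
The map of the 3 promoters shows distance from the midpoint between the 5′ ends in bp (horizontal), with genes as blue arrows, exact heat shock elements as red lines, the regions of each list as bars and their summits as dots. Grey tracks give the percent of 32-mers in 50 bp that occur once in the genome. Regions sit over the hsp-16.2 and hsp-16.41 promoter in all 4 lists, and over neither of the other promoters, where the grey track is at 0%.

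Repeated sequence moves with this difference. Within 500 bp of the 5′ ends, 97.4% of the 32-mers at hsp-16.2 and hsp-16.41 have no second copy on any strand of the genome, against 0% at both other pairs. With 50-mers and 100-mers the interval between the 5′ ends gave 100% for hsp-16.2 and hsp-16.41 and still 0% for the others. Any read that lies within the 1881 identical bases therefore has 2 equal places to align, and how the authors' aligner treated such reads is not given in the sources used here. Across the genome, 274 protein-coding genes had under 10% unique 32-mers within 500 bp of the 5′ end, the 4 duplicated hsp-16 genes among them. None of the 274 had a thresholded peak (exact 95% interval to 1.34%), 1 had a pooled relaxed region (0.365%), 1 a region in replicate 1 and 3 a region in replicate 2 (1.09%). Among the 17620 genes with 90% or more, 2.51% had a thresholded peak and 33.0% a pooled relaxed region. The classes between had thresholded shares close to that, 2.23% of 314 genes with 10 to 50% and 2.84% of 1763 genes with 50 to 90%, and pooled shares of 5.41% and 20.5%. Regions in repeated sequence were not wholly missing from the lists, since 5 thresholded and 22 pooled regions in the nuclear genome held under 10% unique 32-mers. The absence of a region at hsp-16.1, hsp-16.48, hsp-16.49 and hsp-16.11 and an absence of RPC-1 cannot be told apart in these files.

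**Figure D3:**
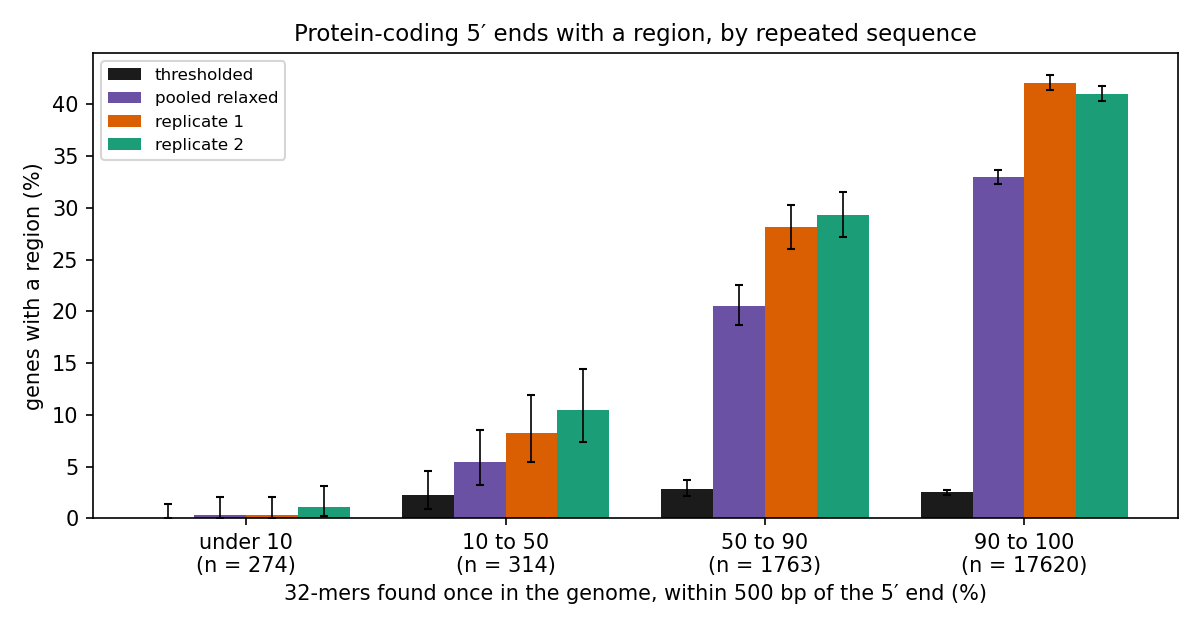
The plot of regions by repeated sequence shows the percent of protein-coding genes with a region within 500 bp of the 5′ end (vertical) in 4 classes of genes by the percent of unique 32-mers there (horizontal), one bar per list, with exact 95% intervals that cover counting error only. The class under 10%, which holds 4 hsp-16 genes, has 0% in the thresholded list and at most 1.09% in the others.

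Short motifs were searched in the 3 promoters. The heat shock element was searched as 3 exact units, either GAA, TTC and GAA or TTC, GAA and TTC, with 2 bases of any kind between units. Both strands were thereby covered, and overlapping matches were counted. In 300 bp at the midpoint, 2 elements were found at each hsp-16 pair, and at least 2 in 9 of the 1726 divergent pairs (0.521%). The letters TATAAA, searched on both strands, occurred once between the 5′ ends of each pair, 37 bp upstream of hsp-16.2, 63 bp upstream of hsp-16.1 and 25 bp upstream of hsp-16.11, on the strand of that gene. The annotated 5′ ends of hsp-16.1, hsp-16.48 and hsp-16.49 are their start codons, so these distances differ in kind. From the start codons, TATAAA lay 70 bp upstream at hsp-16.2 and 63 bp at both hsp-16.1 and hsp-16.11, whose sequences are identical. In 300 bp at the midpoint TATAAA is in 38.1% of divergent pairs. GAGAG was found in none of the 3, between the 5′ ends or between the start codons, with both strands searched. The B box, taken as GGTTC, any base, A, 2 of any base and CC, on either strand, was found in none of the 3 over the same stretches. In 300 bp at the midpoint, a stretch of another length, GAGAG is in 35.6% of divergent pairs and the B box in 0.232%. The nearest annotated gene of a class that RNA polymerase III transcribes was 859529 bp from the hsp-16.2 and hsp-16.41 summit, a transfer RNA gene. No small nucleolar RNA (snoRNA) gene was counted in that class, and the nearest of these was 84772 bp from the summit. At the duplicated pairs the snRNA genes T27E4.11 and T27E4.10 were 935 and 955 bp from the midpoints; all snRNA genes were counted in that class here, although only some of them are made by this enzyme.

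Of the 9 pairs with at least 2 elements, 4 had a thresholded peak (44.4%, exact interval 13.7 to 78.8%). These were 1 of the 3 hsp-16 pairs and 3 of the 6 others. The others called were F44E5.4 and F44E5.5, a pair of heat-inducible HSP70 genes with 10 overlapping matches, hsp-110 and rpn-3, and ahsa-1 and C01G10.7. Their thresholded ranks were 4, 309 and 900, so the hsp-16.2 and hsp-16.41 promoter, at 705, lay below the first and second of them and above the last. With 1 element 10 of 42 pairs had a thresholded peak (23.8%, interval 12.05 to 39.5%), and with none 105 of 1675 (6.27%, interval 5.16 to 7.54%). The pooled relaxed list and replicate 1 did not rise in the same order. In the pooled list the shares were 44.5% with no element, 61.9% with 1 and 55.6% with 2 or more, and in replicate 1 they were 53.7%, 69.0% and 55.6% in that order. In replicate 2 they were 52.4%, 71.4% and 77.8%. In all lists the class with 2 or more counts the duplicated hsp-16 pairs as having no region. At those pairs absence of a region and absence of RPC-1 cannot be told apart, so the shares of this small class, and the order, depend on counting them. Not called besides the duplicated hsp-16 pairs were fbxa-48 and fbxa-39, F01F1.11 and F01F1.3, and Y17D7B.3 and Y17D7B.2. The HSP70 pair's window held 19.8% unique 32-mers and its peak interval 62.6%, against 0% at the duplicated hsp-16 promoters.

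**Figure D4:**
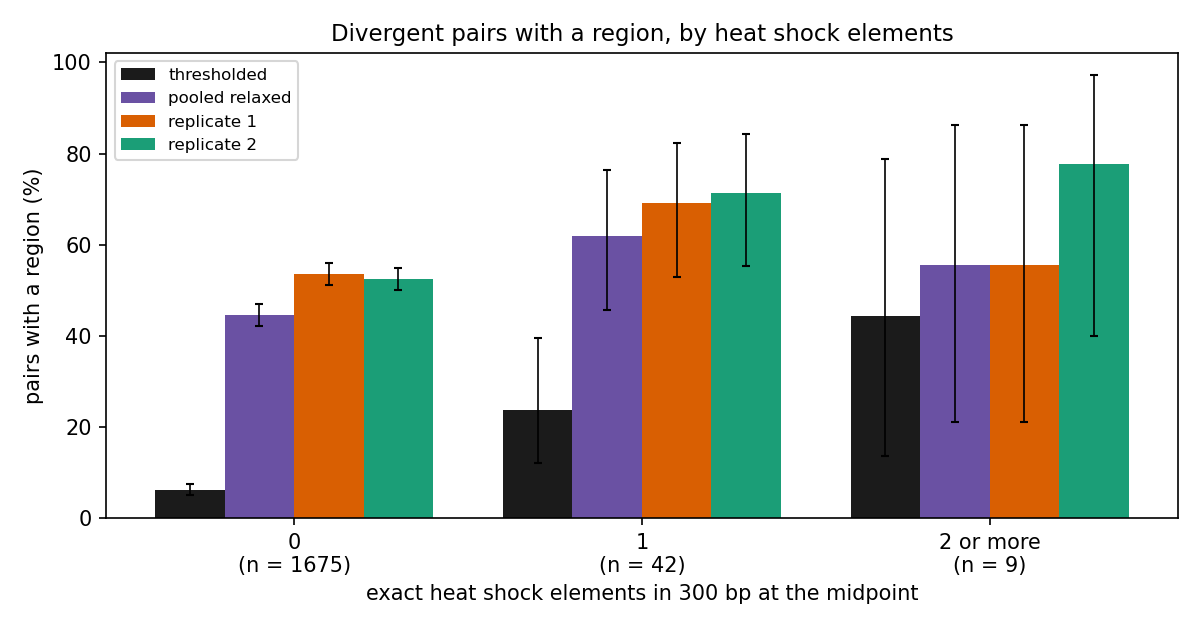
The plot of regions by heat shock elements shows the percent of divergent pairs with a region (vertical) by the number of exact elements in 300 bp at the midpoint (horizontal), one bar per list, with exact 95% intervals that cover counting error only. The thresholded bars stand at 6.27%, 23.8% and 44.4%, the pooled relaxed bars at 44.5%, 61.9% and 55.6%, and the class with 2 or more, which holds all 3 hsp-16 pairs, has 9 pairs and wide intervals. The duplicated hsp-16 pairs count there as having no region, although absence of a region and absence of RPC-1 cannot be told apart at them.

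Other genes of the response were counted by the same rule. Of 12 other small heat shock genes, among them hsp-16.20 and hsp-16.21, none had a thresholded peak, against 2.50% of all protein-coding genes, so a count of 0 in so short a list is near the background. None had an exact element in 300 bp upstream. In the relaxed lists 3 of the 12 had a pooled region, 5 one in replicate 1 and 7 one in replicate 2, against 31.0%, 39.8% and 38.9% of all protein-coding genes. The pooled regions were at hsp-12.3 (signal 21.6, rank 2119), sip-1 (17.4, rank 3266) and ZK1128.7 (13.6, rank 6486), all weaker than the 124 of hsp-16.2 and hsp-16.41. Their summits lay away from the 5′ ends, at -500 bp for hsp-12.3 and -547 bp for sip-1, where negative means downstream, and 668 bp upstream for ZK1128.7. Of 4 genes for the heat shock factor and its regulators, none had a thresholded peak, and hsb-1, whose product binds and inhibits HSF-1, had a pooled region (signal 20.6, rank 2284, summit at -608 bp). Of 11 larger chaperone genes, 8 had a thresholded peak, F44E5.4 and F44E5.5 sharing 1, against 2.50% of all protein-coding genes, and no difference between the lists was tested. They included hsp-1 (425), hsp-60 (549), hsp-110 (382), the HSP70 pair (1209) and hsp-70 (136), whose rank of 679 is nearest to that of the hsp-16 promoter. The chaperone summits also varied in distance, all upstream of the 5′ ends. They lay at 91 bp for hsp-70, 158 bp for F44E5.4, 193 bp for F44E5.5 and 244 bp for hsp-110. Farther out were hsp-90 (351 bp), hsp-6 (372 bp), hsp-1 (414 bp) and hsp-60 (608 bp). The promoters of hsp-60, hsp-6, hsp-110 and hsp-90 are shared with Y22D7AL.10, C37H5.5, rpn-3 and C47E8.4, in that order. Their summits lay at -201.5, 72, 22 and -13.5 bp from the midpoint, where negative here means toward lower coordinates. Each was on the partner gene's side, so signal for the chaperone and for its partner cannot be told apart.

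The hsp-16.2 and hsp-16.41 promoter was also set against other divergent pairs with a thresholded peak. Pairs with an RNA polymerase III or snoRNA gene within 500 bp of the pair's window were left out. There were 103 such pairs, with signals from 35.6 to 1209 and a median of 62.4, and hsp-16.2 and hsp-16.41 came 17th by signal. Their summit was 70.5 bp from the midpoint, against a median of 87 bp, and in 96 of the 103 the summit lay between the 5′ ends (93.2%). The 3 pairs nearest in rank over the 4 lists, by the summed absolute difference of log10 rank, were dad-1 and tre-1 (0.0262), mrg-1 and spcs-2 (0.0467) and erfa-3 and math-33 (0.0778). Their thresholded signals were 121, 120 and 114 at ranks 713, 717 and 726. They code for an oligosaccharyltransferase subunit and a trehalase, a chromodomain protein and a signal peptidase subunit, and a translation release factor and a ubiquitin protease. None of the 3 has an exact heat shock element in 300 bp at the midpoint.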

How the data were processed

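The data were RPC-1 ChIP-seq peak lists from 2 biological replicates of whole N2 young adults. Per the submitters' list of files, the authors called relaxed lists on each replicate and on both together, and derived the thresholded list from these by the irreproducible discovery rate. The control library is not analysed here, and for the aligner, caller and read length: not given in the sources used here. In the deposited lists column 7 is the authors' signal per region, on a scale of its own in each list, and column 9 the −log10 of the q value, which takes 1 value in the whole thresholded list and was not used for ranking. Read depth is unknown, so no interval on a signal is given. Lists on ce10 were not used.

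Genes, 5′ ends and sequence came from RefSeq WBcel235, which equals ce11 (WormBase WS298). Ensembl's annotation gives the same coordinates but calls hsp-16.49 hsp-16.48 and hsp-16.11 hsp-16.1. A promoter had a region where at least 1 bp fell within 500 bp of a 5′ end. For a pair, the window ran from 500 bp outside one 5′ end to 500 bp outside the other. Of 29 listed symbols, 2 were not in the annotation. Uniqueness was the share of 32-mers found once in the nuclear and mitochondrial genome on either strand. No test was run, since there is 1 group and the members and lists were chosen with earlier results of these data known. Genes named by rule were the members and listed small heat shock and heat shock factor genes with a thresholded or pooled region. F44E5.4, F44E5.5, hsp-70, hsp-110 and the 3 pairs nearest in rank were also named by rule. Other chaperones, their divergent partners and the pairs with 2 or more elements were named after their values were seen. Alternatives were other windows, a summit rule, the strongest 660 thresholded peaks, each replicate alone, looser elements, start codons as limits and longer k-mers. The code was tested on simulated data. Python 3.11.15, NumPy 2.4.6, pandas 2.3.3, SciPy 1.17.1, Biopython 1.88 and Matplotlib 3.10.9 were used.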

Additional observations from a re-analysis of the deposited data

How the results depend on the processing

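Of 39 alternatives over 11 results, 24 were counted as leaving the value as it was or within its spread, and 15 as moving it. The summits at 37.5 and 112.5 bp, against 70.5 bp, were counted among the 24, although no spread was measured for a summit. The pair and its 2 genes kept their peak with windows of 250 and 1000 bp, with the summit inside the window, and in the 1320 strongest regions of either replicate. Among the strongest 660 thresholded peaks, 0 pairs and 0 genes of the hsp-16 family had one, since the peak ranks 705, and 1.04% of all divergent pairs did. Leaving out each replicate gave 5.62 to 7.36% of all divergent pairs, hsp-16.2 and hsp-16.41 at the strongest 2.34 to 2.36% of a longer list against 3.41%, and a summit 37.5 to 112.5 bp from the midpoint. With 1 mismatch, elements between the 5′ ends numbered 2 at hsp-16.2 and hsp-16.41 and 4 at each other pair, and with 2 units 3, 4 and 4, against 1, 2 and 2 exact ones. Between the start codons, an alternative chosen after seeing the data, hsp-16.2 and hsp-16.41 had 2. Unique k-mers between their 5′ ends were 100% with 50-mers and 100% with 100-mers, against 98.9%. Ranking by columns 5 or 8 was not run, as each holds 1 value throughout. No paired analysis was possible because there is 1 group. The lists give no read counts, so a weak signal at the duplicated genes could not be bounded.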
